A study of Mus musculus with 12 samples.

Results

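The matrix metalloproteases (MMPs), the ADAMTS proteases, the ADAMTS-like proteins and the tissue inhibitors of metalloproteases (TIMPs) were taken as every protein-coding gene whose symbol is Mmp, Timp, Adamts or Adamtsl followed by a number. These were 51 of 21646 genes, namely 23 Mmp, 4 Timp, 19 Adamts and 5 Adamtsl genes. Their RNA was measured by bulk sequencing of poly-A RNA from gonadal white adipose tissue (GWAT), in 4 groups of 3 libraries. All mice carried Hoip fl/fl, a floxed Rnf31 gene, which encodes the HOIP subunit of the linear ubiquitin chain assembly complex. HoipA-KO mice also carried Adipoq-Cre, which is active in mature adipocytes, and WT mice were their Cre-negative littermates. From 6 weeks of age both genotypes were fed a control diet (CD) with 14% fat by the labels, for which the methods state a slightly lower content, or a high-fat diet (HFD) with 60% fat. The diets lasted 16 weeks, so that the mice were 22 to 24 weeks old. Each library holds RNA pooled from 3 mice, so that p-values measure the spread between pools, and whole tissue was sequenced although Adipoq-Cre targets adipocytes.

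MMPs are zinc proteases that are made as inactive proenzymes, are secreted or held at the cell surface, and together cleave collagens, elastin and other matrix proteins. ADAMTS proteases are secreted and cleave proteoglycans such as versican and aggrecan or trim procollagens, whereas ADAMTS-like proteins share their ancillary domains and lack the protease domain. TIMPs bind the active site of these enzymes, and in adipose tissue all of these families take part in the matrix remodelling that goes with growth of fat cells, vessels and immune infiltrates.

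Between 28787571 and 57182202 counts on protein-coding genes were deposited per library, so that 3 counts, taken as the floor, corresponded to 0.0550 to 0.104 CPM. CPM values are counts relative to the library's total, scaled by TMM, a normalization of library composition, over all 12 libraries. WT CD replicate 3 was left out of the fit, and its values are printed beside the others. The authors' own comparisons leave out the same library. In that library 2411 genes lay more than 8-fold above every other library, against 269 genes in WT CD replicate 2 and at most 64 elsewhere. The 269 genes held 7.09% of the counts of WT CD replicate 2. Markers of epididymal epithelium, such as Lcn5 and Crisp1, summed to 20422 CPM in WT CD replicate 2, against at most 1678 CPM in any other library. WT CD replicate 2 stayed in the fit with replicate 1, so every contrast with WT CD includes it. The part of this other tissue in those contrasts was not tested. Pearson's r between replicates across genes was 0.741 to 0.885 in WT CD and at least 0.965 in the other groups. Rnf31 had 12.8 to 23.2 CPM, with a log2 fold change in HoipA-KO of -0.22 (SE 0.14) on CD and 0.098 (SE 0.13) on HFD, neither past the threshold. Reads over the whole gene and from all cells of the tissue were counted, so this gene does not check the genotype labels. The 10 adipocyte markers, such as Adipoq and Plin1, were found in every library, with a summed level of 5828 to 43763 CPM.

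Of the 51 genes, 45 had a mean over 12 libraries above 0.2 CPM, namely 18 Mmp, all 4 Timp, 18 Adamts and all 5 Adamtsl genes. The 6 below were Mmp16 (mean 0.198 CPM), Mmp1a (0.187), Mmp1b, Mmp20, Mmp21 and Adamts13, and those just above were Mmp24 (0.231), Adamts20 (0.254) and Adamts19 (0.286). Single WT CD libraries decided some of these places. Mmp24 had 1.43 CPM and Adamts20 1.76 CPM in WT CD replicate 3, and neither exceeded 0.252 CPM in any other library. A filter on low counts left 44 members in the test, the 45 without Mmp24 and Adamts20 but with Mmp16. The heat map of all 45 genes shows that most were detected in every group and that a few, led by Mmp12, spanned a far wider range than the rest.

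**Figure D1:**
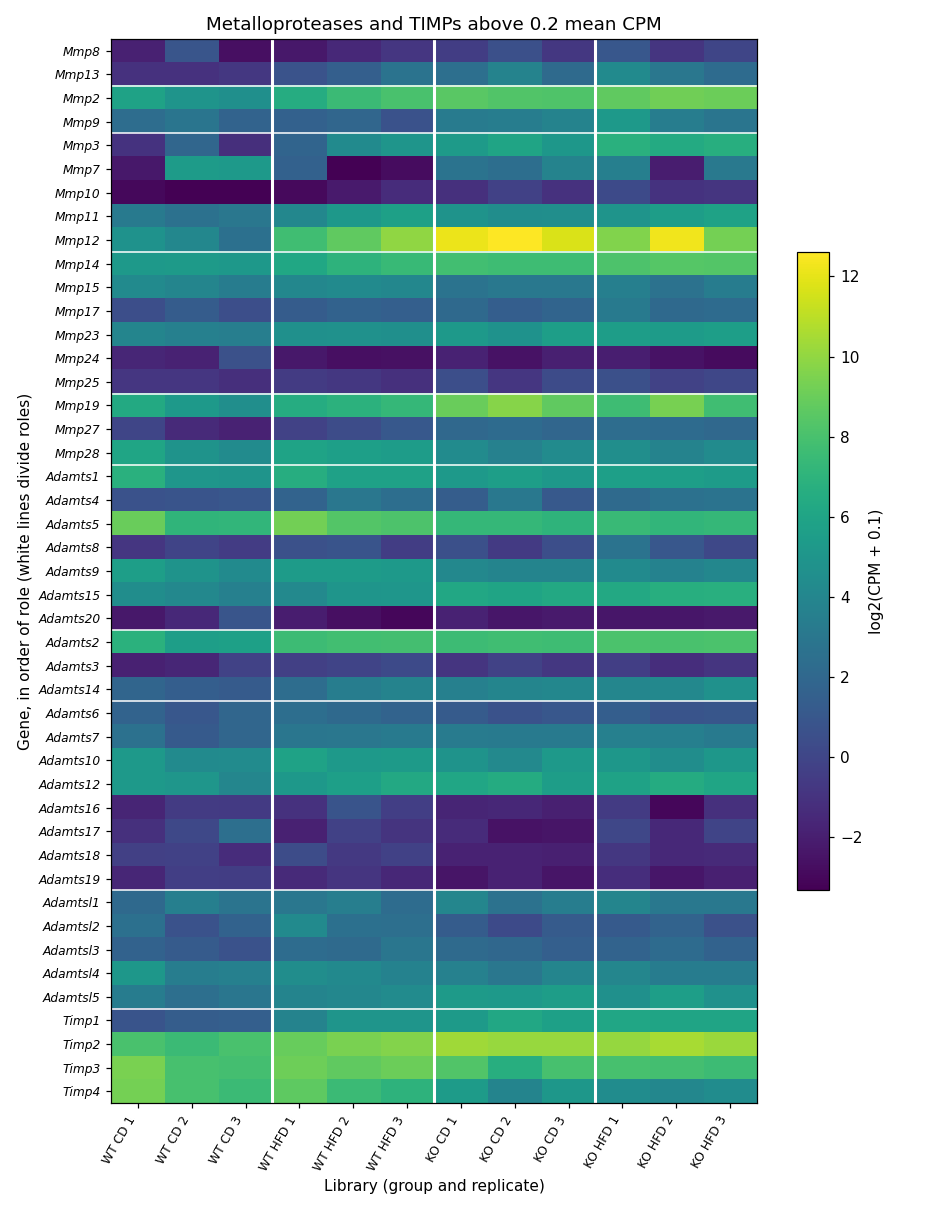
Level of the 45 members above 0.2 mean CPM, as log2(CPM + 0.1) in colour, with genes in rows ordered by role and the 12 libraries in columns. Mmp12 runs from 5.76 CPM in WT CD to 6277 CPM in HoipA-KO CD, and Timp4 is higher in all 6 WT libraries than in any HoipA-KO library.

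The genotype comparison on CD asks how GWAT without adipocyte HOIP differs from control tissue without a dietary challenge. Of the 44 members tested, 17 rose and 5 fell in HoipA-KO CD (38.6% and 11.4% of members) at an adjusted p of 0.05 in the quasi-likelihood test of edgeR, with p-values adjusted over all genes by the Benjamini-Hochberg method. Of all 15617 genes tested, 18.1% rose and 23.9% fell. The members' median log2 fold change was 0.80 and that of all genes -0.16, and scaling by library totals in place of TMM moved the median of all genes to -0.018. On HFD 9 members rose and 5 fell in HoipA-KO (20.5% and 11.4%), against 5.03% and 10.1% of all genes, with a median of 0.52 for members and 0.033 for all genes. Over all 12 libraries 18 rose and 7 fell on CD, whereas on HFD only 3 rose and 2 fell, namely Mmp9, Mmp14, Adamts15, Timp4 and Adamts9. Of all genes in that fit 15.8% rose and 19.0% fell on CD, and on HFD only 0.588% rose and 2.37% fell. The count of 14 on HFD also dropped to 4 when WT HFD replicate 1 was left out, to 3 for WT HFD replicate 2, and to 5 for either replicate 2 or 3 of HoipA-KO HFD, and with library totals as the scale its split was 10 higher and 3 lower. On HFD the calls of Timp4, Adamts9 and Adamts15 held in all 22 alternatives run, and each of the other named calls was lost in some.

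**Figure D2:**
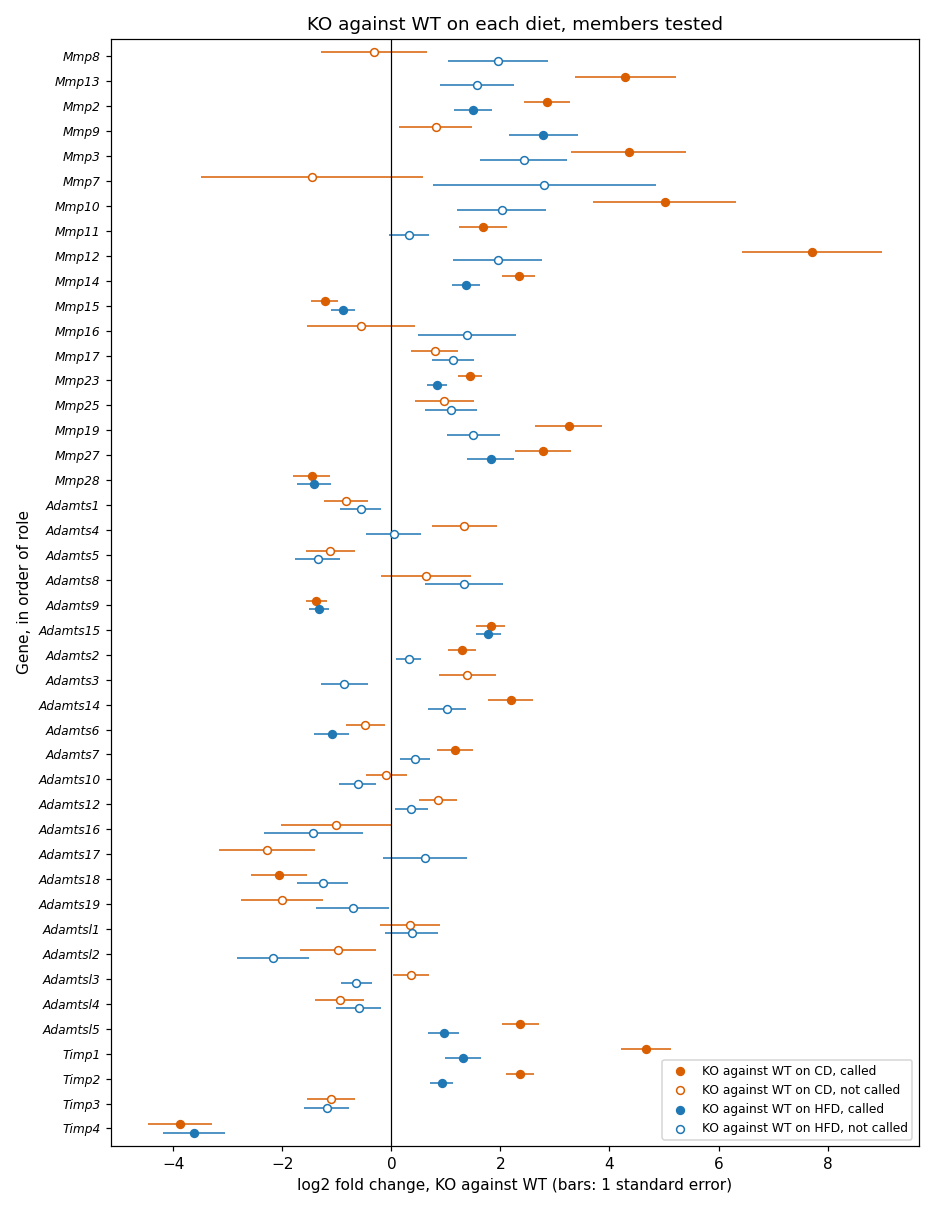
Log2 fold change of HoipA-KO (KO) against WT on CD (orange) and on HFD (blue) for the 44 members tested, over 11 libraries, with bars of 1 standard error and filled points for calls at an adjusted p of 0.05. Mmp12 has the highest value on CD (7.71) and Timp4 the lowest on both diets (-3.88 and -3.62).

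Between genes, levels were compared per kb of annotated exon (CPM per kb, mean ± SD, n = 3 libraries). The length merges all annotated exons of a gene, such as 7237 bases for Mmp12 and 1801 for Mmp3. Ranks and shares between genes therefore depend on the annotation and not on the transcripts in use. In WT CD the 3 highest members were all inhibitors, with 60.6 ± 11.1 for Timp2, 60.4 ± 40.8 for Timp4 and 47.4 ± 30.0 for Timp3, and these 3 did not differ beyond their spread. Below them Mmp7 had 25.6 ± 22.2, carried by 2 libraries, Adamts5 24.1 ± 19.3 and Mmp19 13.4 ± 8.63, again within their spread of each other. In HoipA-KO CD the order began with Mmp12 at 656 ± 199, followed by Timp2 at 308 ± 27.8, Mmp19 at 165 ± 61.2, Mmp2 at 96.4 ± 11.6 and Timp1 at 63.6 ± 19.0. The ranges of these 5 genes over the 3 libraries did not overlap. Mmp12, the macrophage elastase, held 1.08% to 4.50% of the summed MMP level per kb in WT CD, 21.1% to 39.0% in WT HFD, 59.8% to 66.6% in HoipA-KO CD, and 22.1% or less in HoipA-KO HFD replicates 1 and 3 against 57.8% in replicate 2. The inhibitors shifted as well: Timp4 held 24.4% to 41.4% of the summed TIMP level per kb in WT CD, 6.44% to 24.6% in WT HFD, 0.644% to 1.72% in HoipA-KO CD and 0.585% to 0.907% in HoipA-KO HFD. Over the groups on CD Timp1 went from 0.711% to 2.36% up to 10.8% to 21.8%.

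The 4 TIMPs did not move together in HoipA-KO, since Timp1 and Timp2 rose on both diets, Timp4 fell on both, and Timp3 passed the test on neither. Timp1 encodes a secreted, inducible inhibitor of most soluble MMPs and lies at chrX:20870166-20874735 (GRCm38). It had 1.63, 2.52 and 2.72 CPM in WT CD, 13.9, 31.8 and 32.0 in WT HFD, 41.4, 74.8 and 53.1 in HoipA-KO CD and 67.8, 62.3 and 62.9 in HoipA-KO HFD. All WT HFD libraries were above all WT CD libraries, and all HoipA-KO libraries on either diet were above both. Timp1 rose in HoipA-KO by a log2 fold change of 4.68 (SE 0.46, edgeR adjusted p = 0.000392) on CD, a 25.6-fold difference, and by 1.31 (SE 0.33, edgeR adjusted p = 0.0305, and 0.0623 over 12 libraries) on HFD. Timp2 (chr11:118301069-118355740), which both inhibits MMPs and bridges the Mmp2 proenzyme to its activator Mmp14, had 264, 186 and 258 CPM in WT CD, 483, 673 and 823 in WT HFD, 1321, 1118 and 1156 in HoipA-KO CD and 1115, 1459 and 1180.4 in HoipA-KO HFD. Its groups followed the same order without overlap, apart from the 2 HoipA-KO groups, which overlapped. Timp2 rose by 2.36 (SE 0.25, edgeR adjusted p = 0.000405) on CD and 0.92 (SE 0.21, edgeR adjusted p = 0.0222, and 0.0614 over 12 libraries) on HFD.

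Timp4 (chr6:115241892-115252205) encodes the TIMP with the most tissue-restricted expression, known from heart and fat. It had 631, 249.7 and 187 CPM in WT CD, 400.5, 186 and 127 in WT HFD, 43.8, 14.6 and 33.8 in HoipA-KO CD and 21.2, 16.4 and 21.1 in HoipA-KO HFD. All 6 HoipA-KO libraries were lower than all 6 WT libraries, whereas the WT groups overlapped each other, as did the HoipA-KO groups. Timp4 fell in HoipA-KO with a log2 fold change of -3.88 (SE 0.59, edgeR adjusted p = 0.00110) on CD and -3.62 (SE 0.56, edgeR adjusted p = 0.00762, and 0.0312 over 12 libraries) on HFD, or 14.7-fold and 12.3-fold. Leaving out WT CD replicate 1, the highest library, gave a 7.99-fold fall on CD, and leaving out WT HFD replicate 1 gave a 7.94-fold fall on HFD. The summed adipocyte markers moved with it, at 11751 to 43763 CPM in WT CD, 22945 to 29712 in WT HFD, 6309 to 9327 in HoipA-KO CD and 5828 to 8359 in HoipA-KO HFD. Of these 10 markers 9 fell on CD and 10 on HFD, or 8 and 7 over 12 libraries, and none was at 0 in every library. Fewer adipocytes and less RNA per adipocyte cannot be told apart in whole tissue, and the part of this change in the TIMP values was not tested. Timp3 (chr10:86300372-86349506), the matrix-bound TIMP that also inhibits ADAMTS proteases, had 668, 254 and 236 CPM in WT CD, 556, 422 and 536 in WT HFD, 307, 102 and 248 in HoipA-KO CD and 249, 227 and 192 in HoipA-KO HFD. On HFD the WT libraries were all above the HoipA-KO libraries, and on CD the groups overlapped. Its log2 fold changes were -1.11 (SE 0.45, edgeR adjusted p = 0.0711) on CD and -1.19 (SE 0.41, edgeR adjusted p = 0.0771) on HFD. Timp1, Timp3 and Timp4 each lie inside a synapsin gene on the opposite strand (Syn1, Syn3 and Syn2), and Timp3 shares 21.3% and Timp4 1.53% of its exon bases with exons of that gene. The library kit keeps strand, while the strand setting of the counting was not given in the sources used here. Exon bases on the opposite strand are also shared by Mmp19 with Tmem198b (22.3% of its exon bases), Adamts9 with A730049H05Rik (9.18%) and Mmp12 with its neighbour Mmp1b (2.17%).

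**Figure D3:**
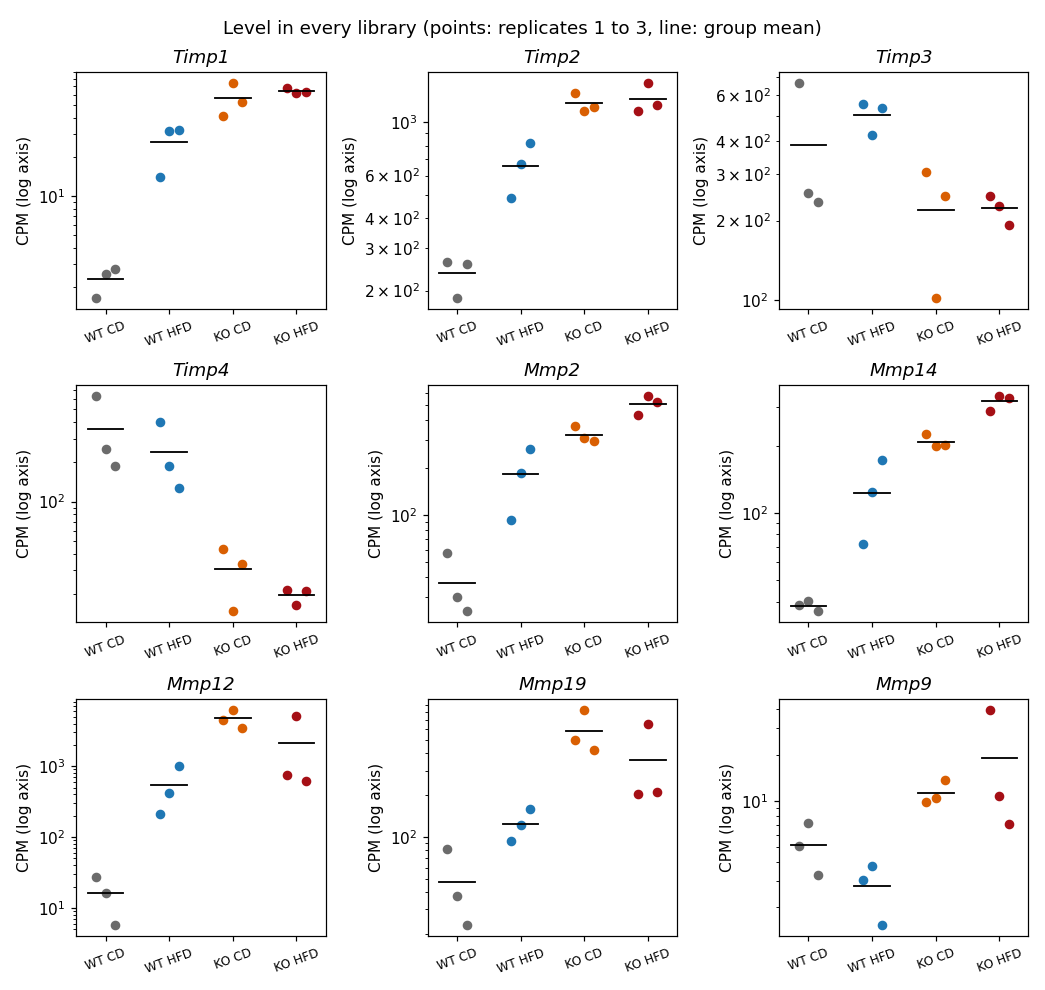
Level of the 4 TIMPs and of Mmp2, Mmp14, Mmp12, Mmp19 and Mmp9 in every library on a log CPM axis, with 1 point per library and a line at each group mean (KO is HoipA-KO). Mmp2 and Mmp14 rise from WT CD over WT HFD and HoipA-KO CD to HoipA-KO HFD without overlap, while Timp4 is lower in every HoipA-KO library than in any WT library.

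Mmp2 and Mmp14 rose with Timp2. Mmp2 encodes gelatinase A, which cleaves denatured and basement membrane collagen, and lies at chr8:92827291-92853420. It had 57.2, 29.7 and 24.2 CPM in WT CD, 93.1, 185 and 265 in WT HFD, 369.9, 307 and 298 in HoipA-KO CD and 430.1, 571 and 528 in HoipA-KO HFD. The 4 groups did not overlap in any library. Mmp2 rose in HoipA-KO by 2.86 (SE 0.42, edgeR adjusted p = 0.000921) on CD and 1.5 (SE 0.34, edgeR adjusted p = 0.0225, and 0.0617 over 12 libraries) on HFD. The value on CD was 3.48 without WT CD replicate 1. Mmp14 (chr14:54431612-54445364) encodes the membrane-anchored collagenase MT1-MMP, which activates the Mmp2 proenzyme, and had 38.6, 40.2 and 36.1 CPM in WT CD, 72.2, 124 and 173 in WT HFD, 225, 199 and 201 in HoipA-KO CD and 287, 334 and 328 in HoipA-KO HFD. Here too no library of one group reached the range of another, in the same order of groups. Mmp14 rose by 2.33 (SE 0.31, edgeR adjusted p = 0.000603) on CD and 1.36 (SE 0.25, edgeR adjusted p = 0.0116, and 0.0327 over 12 libraries) on HFD.

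The other gelatinase, Mmp9 (chr2:164940780-164955850), which is released by neutrophils and macrophages among other cells, passed the test on HFD and not on CD, while the interaction, 1.98 (SE 0.88, edgeR adjusted p = 0.202), was not called. It had 5.06, 7.19 and 3.26 CPM in WT CD, 3.01, 3.74 and 1.53 in WT HFD, 9.83, 10.5 and 13.7 in HoipA-KO CD and 39.8, 10.7 and 7.08 in HoipA-KO HFD. HoipA-KO HFD replicate 1 was far above all other libraries, and on each diet every HoipA-KO library was above every WT library. Mmp9 rose on HFD, by 2.79 (SE 0.63, edgeR adjusted p = 0.0224, and 0.0475 over 12 libraries), and its log2 fold change on CD was 0.81 (SE 0.67, edgeR adjusted p = 0.356). Without HoipA-KO HFD replicate 1 the value on HFD was 1.71 (edgeR adjusted p = 0.0285), and the call was lost without WT HFD replicate 1 (edgeR adjusted p = 0.0806) or replicate 2 (0.0616). In HoipA-KO HFD replicate 1 the neutrophil markers, such as S100a8 and S100a9, summed to 111 CPM, against 14.8 and 25.0 in the other HoipA-KO HFD libraries, and smooth muscle and pericyte markers to 2604 against 514 and 597 CPM. The markers of epididymal epithelium summed to 1678 CPM in the same library, against 0.165 and 115. Of the 9 neutrophil markers tested, 1 rose and 0 fell in HoipA-KO on HFD. The part of these cells and tissues in the Mmp9 value was not tested.

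Of the 6 membrane-anchored MMPs tested, Mmp14 and Mmp23 rose and Mmp15 fell on both diets, and Mmp16, Mmp17 and Mmp25 were not called on either. Mmp23, at 11.2 to 15.3 CPM in WT CD and 28.4 to 48.2 in HoipA-KO CD, changed by 1.44 on CD and 0.84 on HFD. Over 12 libraries Mmp23 was not called on HFD. Mmp15, which encodes MT2-MMP, had 19.5, 14.9 and 10.1 CPM in WT CD, 16.7, 19.7 and 16.3 in WT HFD, 6.66, 8.15 and 8.15 in HoipA-KO CD and 11.7, 6.40 and 10.4 in HoipA-KO HFD. The HoipA-KO libraries were below the WT libraries of the same diet throughout. Mmp15 fell with a log2 fold change of -1.22 (SE 0.25, edgeR adjusted p = 0.00421, and 0.0276 over 12 libraries) on CD and -0.89 (SE 0.23, edgeR adjusted p = 0.0322, and 0.120 over 12 libraries) on HFD, and the call on CD was lost when WT CD replicates 2 and 3 stood in for 1 and 2 (log2 fold change -0.73, adjusted p = 0.0766).

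A cluster of 10 MMP genes on chromosome 9 (chr9:7272514-7699585, 427.1 kb) held 4 of the 5 largest rises on CD, the other being that of Timp1. In chromosomal order it runs Mmp13, Mmp12, Mmp1b, Mmp3, Mmp1a, Mmp10, Mmp8, Mmp27, Mmp20 and Mmp7, a set of secreted collagenases, stromelysins, elastase and matrilysin. Of its 7 genes tested, 5 rose on CD (Mmp12, Mmp10, Mmp3, Mmp13 and Mmp27), none fell, and Mmp8 and Mmp7 were not called. All 10 genes have a promoter window in RefSeq (GRCm38.p6), and in the 250 bases before a start 7 of them hold TGACTCA or its reverse complement TGAGTCA, the core letters of the AP-1 motif, searched on both strands. No other member with a window does, which makes 7 of 36 members (19.4%), against 1395 of 27025 genes with a window (5.16%). The stretches of 4 genes are shown, because these genes hold the motif and rose in HoipA-KO CD. Each is the 120 bases before the start, 5′ to 3′ on the + strand, with the AP-1 letters in capitals.
Mmp13, chr9:7272394-7272513: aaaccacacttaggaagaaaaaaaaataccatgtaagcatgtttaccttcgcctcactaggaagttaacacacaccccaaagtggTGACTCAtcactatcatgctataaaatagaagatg
Mmp12, chr9:7347254-7347373: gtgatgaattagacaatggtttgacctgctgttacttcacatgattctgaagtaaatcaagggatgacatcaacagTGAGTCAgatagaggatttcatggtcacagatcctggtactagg
Mmp3, chr9:7445702-7445821: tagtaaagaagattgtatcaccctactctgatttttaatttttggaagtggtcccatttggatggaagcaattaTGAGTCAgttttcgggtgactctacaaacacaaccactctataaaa
Mmp10, chr9:7502222-7502341: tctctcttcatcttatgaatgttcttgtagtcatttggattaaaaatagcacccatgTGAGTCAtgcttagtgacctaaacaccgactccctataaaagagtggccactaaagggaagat
The capitals begin 35 bases before the start in Mmp13, 44 in Mmp12, 46 in Mmp3 and 63 in Mmp10. The Mmp12 window belongs to the downstream of 2 annotated starts, inside the gene's span, and the upstream start has no match. Mmp7 holds the motif too and was not called. Mmp1a and Mmp1b also hold it but were not tested, with at most 1 count in any library but WT CD replicate 2. Of the 17 members that rose on CD, 13 have a window, of which 4 hold it (30.8%). None of the 5 members that fell does, all with a window. Of the 18 members with a window that were not called or not tested, 3 hold it (16.7%). All holders lie in the cluster, in which no gene fell. A second motif, the ETS letters AGGAAG or CTTCCT, was in 13 of 36 members (36.1%) and 32.3% of all genes, and TATAAA or TTTATA in 10 (27.8%) and 14.3%. A match is a description of these letters and not evidence of binding.

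Mmp12 (chr9:7344381-7369499) encodes macrophage metalloelastase and had the largest log2 fold change of all members on CD. It had 27.2, 16.3 and 5.76 CPM in WT CD, 211, 419 and 1015 in WT HFD, 4532, 6277 and 3425 in HoipA-KO CD and 757, 5027 and 621 in HoipA-KO HFD. The groups did not overlap on CD, every WT HFD library was above every WT CD library, and in HoipA-KO HFD replicate 2 stood with the CD libraries while replicates 1 and 3 lay within the range of WT HFD. Mmp12 rose by 7.71 (SE 1.28, edgeR adjusted p = 0.00161) on CD, a 209.8-fold difference, and its log2 fold change on HFD was 1.95 (SE 0.82, edgeR adjusted p = 0.128), which did not pass. The 9 macrophage markers, such as Adgre1 and Cd68, summed to 420 to 561 CPM in WT CD, 1585 to 4989 in WT HFD, 8230.0 to 11599.5 in HoipA-KO CD, and 5901, 10135 and 6219 in HoipA-KO HFD. Of these 9 markers 8 rose on CD and 3 on HFD, or 7 and 0 over 12 libraries, none was at 0 in every library, and their part in the Mmp12 values was not tested.

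Mmp3 and Mmp10 encode stromelysins 1 and 2, which cleave proteoglycans and activate other MMP proenzymes. Mmp3 had 0.415, 3.71 and 0.352 CPM in WT CD, 3.35, 19.7 and 31.7 in WT HFD, 41.0, 63.0 and 34.4 in HoipA-KO CD and 109, 83.8 and 101 in HoipA-KO HFD. On each diet all HoipA-KO libraries were above all WT libraries, and HoipA-KO HFD held the highest levels. Mmp3 rose by 4.35 (SE 1.05, edgeR adjusted p = 0.00961) on CD, and its value on HFD was 2.43 (SE 0.79, edgeR adjusted p = 0.0664). The size on CD depended on WT CD replicate 2, where Mmp3 was highest of its group, with 6.79 without that library and 3.66 without replicate 1. Mmp10 had 0.0259, 0 and 0 CPM in WT CD, 0.0346, 0.121 and 0.311 in WT HFD, 0.358, 0.757 and 0.377 in HoipA-KO CD and 1.09, 0.402 and 0.459 in HoipA-KO HFD. All HoipA-KO libraries were above all WT libraries, at low levels. The comparison on CD rested on 1 count over all WT CD libraries and 76 over HoipA-KO CD, a ratio of 69.3 with a 95% exact interval of 12.1 to 2773 that covers counting error only. Its fitted log2 fold change on CD was 5.01 (SE 1.31, edgeR adjusted p = 0.0111), which depends on the prior count, and leaving out WT CD replicate 1 gave 7.55, whereas leaving out replicate 2 gave 4.13 and lost the call (edgeR adjusted p = 0.0593).

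The collagenase Mmp13 had 0.389, 0.389 and 0.5 CPM in WT CD, 1.59, 2.71 and 6.62 in WT HFD, 5.52, 14.1 and 4.52 in HoipA-KO CD and 19.9, 7.87 and 4.60 in HoipA-KO HFD. WT CD libraries were lowest without overlap, and the 2 HoipA-KO groups overlapped each other and the top of WT HFD. Mmp13 rose by 4.29 (SE 0.93, edgeR adjusted p = 0.00570) on CD, or 3.61 without HoipA-KO CD replicate 2. On HFD its value of 1.57 (SE 0.68, edgeR adjusted p = 0.137) did not pass. Mmp27 had 0.908, 0.275 and 0.185 CPM in WT CD, 0.795, 1.19 and 1.96 in WT HFD, 4.09, 4.58 and 3.81 in HoipA-KO CD and 5.09, 4.75 and 4.11 in HoipA-KO HFD. All HoipA-KO libraries were above all WT libraries, and Mmp27 rose by 2.78 (SE 0.52, edgeR adjusted p = 0.00289) on CD and 1.82 (SE 0.42, edgeR adjusted p = 0.0242, and 0.0889 over 12 libraries) on HFD. Leaving out WT CD replicate 1 gave 3.93 for Mmp27 on CD, and leaving out replicate 2 gave 2.19. In the rest of the cluster, Mmp8, the neutrophil collagenase, had a log2 fold change of -0.32 on CD. Its values in WT CD were 0.182, 1.76 and 0.0556 CPM, highest in replicate 2, where the neutrophil markers also summed to 249 CPM against at most 111 elsewhere. Matrilysin, Mmp7, had 0.104, 43.2 and 38.8 CPM in WT CD and 0 to 14.0 CPM in the other groups. Mmp1a had 2.22 CPM and Mmp1b 0.893 CPM in WT CD replicate 2 and at most 1 count in any other library. In that same library the markers of epididymal epithelium, such as Lcn5 and Crisp1, summed to 20422 CPM, against at most 1678 elsewhere. Mmp7 was about as high in WT CD replicate 3, where these markers summed to 10.1 CPM. Their part in these 4 genes was not tested.

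**Figure D4:**
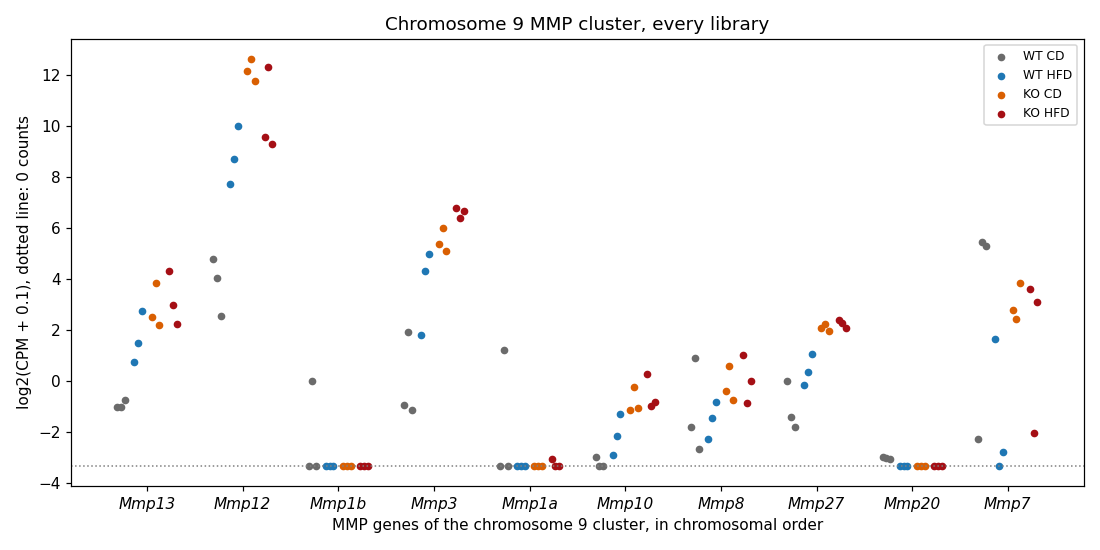
Level of the 10 MMP genes of the chromosome 9 cluster in every library, as log2(CPM + 0.1) in chromosomal order, with grey for WT CD, blue for WT HFD, orange for HoipA-KO (KO) CD and dark red for HoipA-KO HFD. Mmp13, Mmp12, Mmp3, Mmp10 and Mmp27 have their lowest group mean CPM in WT CD, Mmp7 is highest in 2 WT CD libraries, and Mmp20 is at the floor throughout.

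The remaining MMPs split. Mmp19 (chr10:128790910-128800824), a widely expressed secreted MMP, had 81.5, 37.3 and 23.1 CPM in WT CD, 93.7, 122 and 158 in WT HFD, 498, 829 and 423 in HoipA-KO CD and 204, 653 and 211 in HoipA-KO HFD. All HoipA-KO libraries were above all WT libraries, and in HoipA-KO HFD replicate 2 was far above the other 2, as for Mmp12. Mmp19 rose by 3.25 (SE 0.61, edgeR adjusted p = 0.00301) on CD, or 3.99 without WT CD replicate 1, and on HFD its value of 1.5 (SE 0.49, edgeR adjusted p = 0.0649) did not pass. Mmp11, stromelysin 3, had 8.84, 6.05 and 7.80 CPM in WT CD, 16.7, 36.7 and 54.4 in WT HFD, 28.6, 22.4 and 23.4 in HoipA-KO CD and 30.7, 46.4 and 57.7 in HoipA-KO HFD. On CD the HoipA-KO libraries were all higher, and on HFD the groups overlapped. Mmp11 rose by 1.68 (SE 0.44, edgeR adjusted p = 0.0139) on CD, a call lost without WT CD replicate 2 (adjusted p = 0.0831), and was not called on HFD (0.33). Mmp28, or epilysin, fell on both diets. It had 67.0, 29.4 and 20.6 CPM in WT CD, 59.4, 50.8 and 44.9 in WT HFD, 20.4, 12.8 and 20.5 in HoipA-KO CD and 23.9, 13.7 and 20.4 in HoipA-KO HFD. On HFD all HoipA-KO libraries were lower, whereas on CD WT replicate 3 lay next to the highest HoipA-KO libraries. Mmp28 fell with a log2 fold change of -1.47 (SE 0.34, edgeR adjusted p = 0.00839, and 0.0494 over 12 libraries) on CD and -1.42 (SE 0.32, edgeR adjusted p = 0.0210, and 0.0802 over 12 libraries) on HFD, and on CD its log2 fold change was -0.69 without WT CD replicate 1 (adjusted p = 0.126).

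Among the 6 proteoglycan-cleaving ADAMTS genes tested, Adamts15 rose and Adamts9 fell on both diets, and these calls held under all 22 alternatives. Adamts15 (chr9:30899155-30922452), which cleaves versican and aggrecan, had 22.1, 16.9 and 12.2 CPM in WT CD, 18, 32.3 and 33.1 in WT HFD, 74.5, 63.6 and 77.2 in HoipA-KO CD and 78.0, 103 and 105 in HoipA-KO HFD. All HoipA-KO libraries were above all WT libraries. Adamts15 rose by 1.82 (SE 0.26, edgeR adjusted p = 0.000838, and 0.000456 over 12 libraries) on CD and 1.78 (SE 0.23, edgeR adjusted p = 0.00556, and 0.0295 over 12 libraries) on HFD. Adamts9 (chr6:92772699-92943492), another versican-cleaving protease, had 48.2, 29.6 and 19.9 CPM in WT CD, 42.4, 42.1 and 39.1 in WT HFD, 17.4, 14.4 and 14.8 in HoipA-KO CD and 19.3, 13.3 and 16.7 in HoipA-KO HFD. Here all HoipA-KO libraries were below all WT libraries, the nearest being WT CD replicate 3. Adamts9 fell with a log2 fold change of -1.38 (SE 0.20, edgeR adjusted p = 0.000824, and 0.0148 over 12 libraries) on CD and -1.33 (SE 0.18, edgeR adjusted p = 0.00598, and 0.0393 over 12 libraries) on HFD. With WT CD replicates 2 and 3 standing in for 1 and 2, the value of Adamts9 on CD was -0.69. Adamts1, Adamts4, Adamts5 and Adamts8 were called on neither diet. Of these Adamts5, the aggrecanase with the highest level, had a log2 fold change of -1.13 (SE 0.45, edgeR adjusted p = 0.0693) on CD and -1.35 (SE 0.41, edgeR adjusted p = 0.0546) on HFD. Its WT CD values of 500.4, 136 and 143 CPM were spread over more than the HoipA-KO CD values of 157, 156 and 133 CPM.

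The 3 procollagen N-propeptidases, which remove the amino-terminal propeptide of fibrillar collagens, gave 2 rises on CD and no call on HFD. Adamts2, the main enzyme of type I procollagen, had 48.7 to 113 CPM in WT CD and 196 to 209 in HoipA-KO CD, with log2 fold changes of 1.29 on CD and 0.32 on HFD. For Adamts14 they were 2.18 and 1.02. Adamts3, which also processes VEGF-C, had 0.182, 0.229 and 0.797 CPM in WT CD, 0.726, 0.884 and 1.09 in WT HFD, 0.443, 0.776 and 0.503 in HoipA-KO CD and 0.691, 0.331 and 0.459 in HoipA-KO HFD. WT HFD held the highest group mean, and WT CD and HoipA-KO CD overlapped. Its value on CD was 1.39 (SE 0.52, edgeR adjusted p = 0.0533). Among the 8 other ADAMTS genes tested, Adamts7 rose on CD (1.17), Adamts18 fell on CD and Adamts6 fell on HFD. Adamts18 had 0.726, 0.733 and 0.315 CPM in WT CD, 1.21, 0.522 and 0.755 in WT HFD, 0.190, 0.185 and 0.168 in HoipA-KO CD and 0.499, 0.260 and 0.275 in HoipA-KO HFD. Its HoipA-KO CD libraries were the lowest and all under 0.2 CPM, and its log2 fold change was -2.07 (SE 0.52, edgeR adjusted p = 0.0107, and 0.0293 over 12 libraries). Adamts6 had 3.24, 1.88 and 3.71 CPM in WT CD, 5.22, 4.28 and 3.29 in WT HFD, 2.28, 1.55 and 1.88 in HoipA-KO CD and 2.59, 1.63 and 1.80 in HoipA-KO HFD. On HFD all HoipA-KO libraries were below all WT libraries, and on CD the groups overlapped. Adamts6 fell on HFD with a log2 fold change of -1.09 (SE 0.32, edgeR adjusted p = 0.0480), a call lost in 15 of 22 alternatives, the fit over 12 libraries among them. Of the 5 ADAMTS-like genes Adamtsl5 alone was called, with a log2 fold change of 2.36 on CD and 0.96 on HFD. Over 12 libraries Adamtsl5 was not called on HFD. Adamtsl2, which binds latent TGF-beta binding protein, had -2.18 on HFD (edgeR adjusted p = 0.0531).

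The diet comparison within a genotype asks what 16 weeks of HFD changed. In WT mice 12 members rose and none fell (27.3% and 0% of 44), against 9.99% and 7.79% of all genes, with a median of 0.77 for members and -0.062 for all genes. By edgeR 0 members were lower at an unadjusted p of 0.05, and by DESeq2 0 at an adjusted p of 0.05. The shares of all genes beside these counts are not given here. The 12 were Mmp12, Timp1, Mmp13, Mmp11, Adamts3, Mmp2, Adamts14, Mmp14, Timp2, Adamts2, Adamtsl5 and Mmp23. All 3 procollagen N-propeptidases were among them. Mmp12 had the largest log2 fold change, 4.59 (SE 1.10, edgeR adjusted p = 0.0233), then Timp1 with 3.55 (SE 0.43, edgeR adjusted p = 0.00563) and Mmp13 with 3.14 (SE 0.88, edgeR adjusted p = 0.0382). Without WT HFD replicate 3 the values were 3.78 for Mmp12 and 2.37 for Mmp13, and neither call held there or without WT CD replicate 2 or WT HFD replicate 2. In the middle were Mmp11 (2.21), Adamts3 (2.04), Mmp2 (2.00) and Mmp14 (1.57). Mmp2 gave 2.63 without WT CD replicate 1. The call of Adamts3 was lost over 12 libraries (1.09, adjusted p = 0.231). There 14 members rose, 11 of the 12 among them, and 0 fell, against 9.36% and 6.20% of all genes. The count was 5 without WT CD replicate 2, 6 without WT HFD replicate 2 or replicate 3, and 0 when the 2 WT groups alone were fitted. WT HFD replicate 1 lay nearest to WT CD for Timp1, Timp2, Mmp2, Mmp12 and Mmp14. It also had the lowest summed macrophage markers of its group, 1585 CPM against 2902 and 4989. Of these 9 markers 7 rose with HFD in WT, and their part in the diet values was not tested.

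In HoipA-KO mice no member was called for HFD against CD, and neither was any of all genes (0% higher and 0% lower by the test of edgeR, and 0 members by DESeq2). At an unadjusted p of 0.05, 3 members were higher (Mmp14, Mmp11 and Adamts17) and 0 lower. Deviations from the group means were positively correlated between libraries of the same number in these 2 groups, but libraries of different number were not compared. In a fit of these groups alone with that number as a block, 0 of 42 members were called. This fit gave 9 higher and 2 lower at an unadjusted p of 0.05. The share of all genes at an unadjusted p of 0.05 is not given here, so these unadjusted counts stand without a comparison. Mmp14 had a log2 fold change of 0.60 (SE 0.25, edgeR adjusted p = 1), Mmp2 0.64 (SE 0.33, edgeR adjusted p = 1), Timp1 0.18 (SE 0.32, edgeR adjusted p = 1) and Mmp12 -1.17 (SE 0.80, edgeR adjusted p = 1). The difference between genotypes in the diet response, which is also the difference between diets in the genotype contrast, was tested as an interaction. It was called negative for 3 members (6.82%) and positive for 0, against 3.62% and 0.371% of all genes. Over 12 libraries the shares of all genes were 2.82% and 0.0646%. Of the 9 macrophage markers 5 were called negative and 0 positive, and their part in the members' values was not tested. At an unadjusted p of 0.05 it was negative for 12 members and positive for 1, and the share of all genes at that threshold is not given here. The 3 members called were Mmp12 with -5.76 (SE 1.33, edgeR adjusted p = 0.0467, and 0.0319 over 12 libraries), Timp1 with -3.37 (SE 0.52, edgeR adjusted p = 0.0251, and 0.0130 over 12 libraries) and Timp2 with -1.44 (SE 0.31, edgeR adjusted p = 0.0403, and 0.0546 over 12 libraries). For Mmp12 the value was -4.94 when WT HFD replicate 3 was left out and -7.37 when HoipA-KO HFD replicate 2 was. For all 3 the rise in HoipA-KO was smaller on HFD than on CD. The values per library above show this as a higher WT level on HFD with a HoipA-KO level that overlapped between diets for Timp1 and Timp2. The members' median interaction was -0.51 and that of all genes 0.068. The count was 2 over 12 libraries, 8 without WT CD replicate 1, 6 without WT HFD replicate 1, 5 when HoipA-KO HFD replicate 2 was dropped, 1 for WT HFD replicate 3, and 0 for each of WT CD replicate 2, WT HFD replicate 2, the 3 HoipA-KO CD libraries or HoipA-KO HFD replicates 1 and 3.

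**Figure D5:**
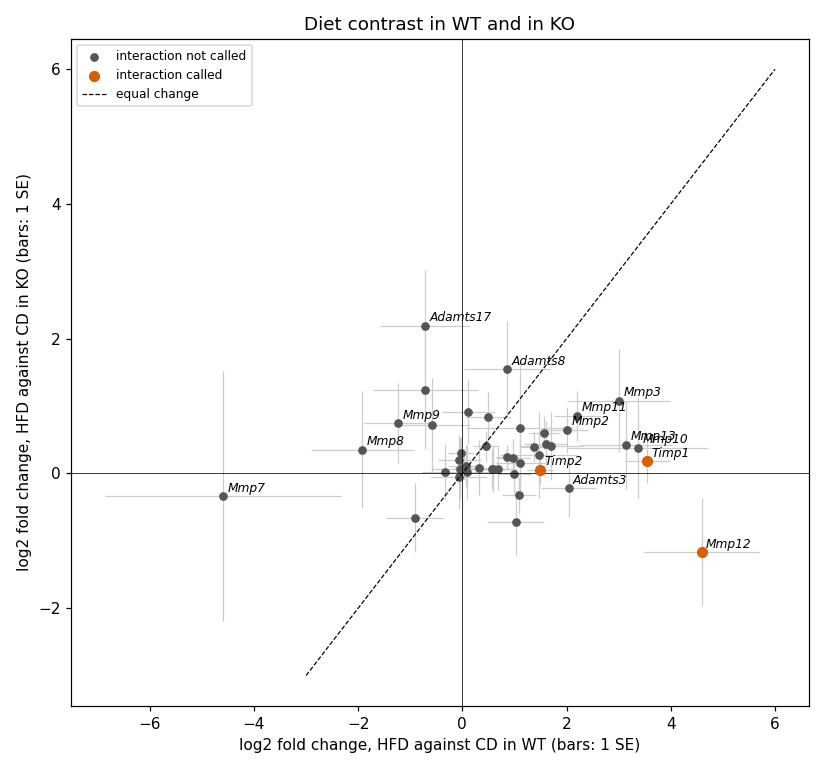
Log2 fold change of HFD against CD in WT (horizontal axis) and in HoipA-KO (KO, vertical axis) for the 44 members tested, with bars of 1 standard error and a dashed line of equal change. Mmp12, Timp1 and Timp2, in orange, are the members called in the interaction and lie to the right of the line.

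Genes outside the 4 families that act with them were described from 3 lists. Of 16 activators and inhibitors tested, 5 rose and 1 fell on CD, with a median log2 fold change of 0.45. Plaur, the receptor that focuses plasmin formation by urokinase at the cell surface, rose by 3.65 (SE 0.41, edgeR adjusted p = 0.000412). Lrp1, the receptor that takes up protease and inhibitor complexes, rose by 1.98 (SE 0.36, edgeR adjusted p = 0.00246), and the proprotein convertase Pcsk6 fell with a log2 fold change of -3.08 (SE 0.29, edgeR adjusted p = 0.000392). Of 17 other matrix-degrading proteases tested, 11 rose and 0 fell (median 1.45), 3 of them being Adam8 with 6.77 (SE 0.81, edgeR adjusted p = 0.000469), cathepsin K (Ctsk) with 5.64 (SE 0.64, edgeR adjusted p = 0.000426) and cathepsin S (Ctss) with 5.38 (SE 0.56, edgeR adjusted p = 0.000392). Of 15 matrix substrates and partners tested, 8 rose and 0 fell (median 1.36), among them Col1a1 with 2.73 (SE 0.32, edgeR adjusted p = 0.000447), biglycan (Bgn) with 2.58 (SE 0.35, edgeR adjusted p = 0.000643) and Col1a2 with 2.46 (SE 0.28, edgeR adjusted p = 0.000425). On HFD these lists gave 1 rise and 1 fall, 3 rises and 0 falls, and 2 rises and 3 falls, in the same order, but over 12 libraries at most 1 rise and 1 fall each. In the HFD comparison within WT they gave 3, 11 and 8 rises and 0 falls, and within HoipA-KO none was called. Of all genes 18.1% rose and 23.9% fell on CD, 5.03% and 10.1% on HFD, and 9.99% and 7.79% with HFD in WT. The fibroblast and progenitor markers, such as Pdgfra and Dpp4, gave 4 rises of 10 on CD, and the myofibroblast markers, such as Postn and Tnc, 5 of 8. The mast cell markers gave 6 of 7, and the endothelial markers 4 falls of 8, or 1 over 12 libraries.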

How the data were processed

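Bulk RNA-seq was analysed in 12 libraries of GWAT, 3 in each of 4 groups taken from the sample titles. The authors deposited estimated counts per gene, one table for protein-coding genes and one for all annotated genes, made from trimmed reads (Trim Galore 0.6.7) with STAR 2.7.10a and Salmon 1.5.2. The build is GRCm38 by the submitters' processing notes, whereas the methods name a human assembly. The 3 deposited DESeq2 tables hold the authors' own fold changes and p-values and were not used, and no per-library column of another series was present (0).

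The protein-coding counts were rounded and tested with edgeR 4.0.16 in R 4.3.3 (filterByExpr, TMM, glmQLFit and glmQLFTest) in 1 means model of the 4 groups over 11 libraries. WT CD replicate 3 was left out, since the headers of the deposited comparisons list only WT CD replicates 1 and 2. Adjusted p-values are Benjamini-Hochberg values over all 15617 genes tested, with a threshold of 0.05. The standard error is the absolute log2 fold change fitted without a prior count, divided by the square root of F. The printed log2 fold changes include the prior count of 0.125, so for genes with few counts, such as Mmp10, value and standard error differ in scale. Printed CPM are TMM-scaled over 12 libraries. With 11 libraries the biological coefficient of variation was 0.385, and with 12 it was 0.508. The fit was run beforehand on simulated counts in which a small, balanced set of genes changed in HoipA-KO CD. That setting holds no outlying library and no shift of many genes, so it does not check the scaling used here. Correlations of same-numbered deviations from the group means ran from -0.383 to 0.538. In every pair of the 2 HoipA-KO groups they were above 0.1 (0.133, 0.538 and 0.307), so the numbers were taken to pair these libraries, and in no other 2 groups of 3 was this so. This pairing was inferred from these same data, since the sample titles give replicate numbers and no pairing. Correlations between libraries of different number were not computed, so the pairing has no baseline and was not tested.

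Members and gene lists were chosen with earlier results of these data known. Values per library are given for the TIMPs, Mmp2, Mmp9, Mmp14, up to 6 members called in each direction with the largest log2 fold change per contrast, and those called in the interaction; other members are counted by role, and members named beyond this rule (such as Mmp23, Adamts5 and Mmp7) were chosen after their values were seen. Up to 3 genes are named per pathway list. Positions and exon lengths are from GENCODE M21 (GRCm38), in which all 51 members matched by gene ID, and promoter windows are from RefSeq (GRCm38.p6), in which 36 members have one. Alternatives were all 12 libraries, other scalings, filters and tables, DESeq2 1.42.0, fits of the compared groups alone, a replicate block, leaving out each library, and a threshold of 0.01.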

Additional observations from a re-analysis of the deposited data

Results flagged for a closer look

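For 3 members the log2 fold change of HoipA-KO against WT differed between diets by the interaction test of edgeR over 11 libraries. The difference, HFD minus CD, was -5.76 (SE 1.33, edgeR adjusted p = 0.0467, and 0.0319 over 12 libraries) for Mmp12, -3.37 (SE 0.52, edgeR adjusted p = 0.0251, and 0.0130 over 12 libraries) for Timp1 and -1.44 (SE 0.31, edgeR adjusted p = 0.0403, and 0.0546 over 12 libraries) for Timp2. For Mmp12 the contrast was 7.71 on CD and 1.95 on HFD, for Timp1 4.68 and 1.31, and for Timp2 2.36 and 0.92. In all WT HFD libraries these genes were higher than in all WT CD libraries. The interaction was also called negative for 5 of 9 macrophage markers (median -2.41) and positive for 0. For markers of lipid-associated macrophages, such as Trem2 and Spp1, it was 6 of 9 (median -3.17) and 0. Of all genes 3.62% were called negative. The part of these markers in the values of the 3 members was not tested. Libraries were compared and left out in turn, but no outlier test was run within groups of 3 libraries.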

How the results depend on the processing

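The number of members called was 22 for HoipA-KO against WT on CD, 14 on HFD, 12 for HFD in WT, 0 for HFD in HoipA-KO and 3 for the interaction. Over all 12 libraries HFD gave 5 (3 higher and 2 lower), where 0.588% of all genes rose and 2.37% fell. Without a filter the interaction gave 1 and with DESeq2 5. Fitting only the compared groups gave 0 for HFD in WT. The replicate number was also used as a block in all groups, although a pairing was inferred from these data only for the HoipA-KO libraries. With this block the interaction gave 1, the genotype contrasts 23 on CD and 17 on HFD, and the diet contrast in WT 8. For HFD in HoipA-KO it gave 0, also in a fit of those 2 groups alone, chosen after seeing the data. At an adjusted p of 0.01 the counts were 3 on HFD, 3 for HFD in WT and 0 for the interaction. With a fit on WT CD replicates 1 and 3, chosen after seeing the data, HFD gave 6 and the interaction 1, and with replicates 2 and 3 HFD in WT gave 26 (24 higher, 2 lower) and the interaction 10. Leaving out 1 library gave 22 to 24 on CD, 3 to 19 on HFD, 5 to 15 for HFD in WT, 0 in every case for HFD in HoipA-KO, and 0 to 8 for the interaction. Without WT CD replicate 1 or 2 a single WT CD library remains and is assumed to vary like the other groups. The cause of these changes was not tested. Members above the level of 0.2 mean CPM numbered 45, 46 with library totals as the scale and 44 over 11 libraries. The level of 0.1 gave 47 and that of 0.5 gave 39.

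Of the 40 log2 fold changes of named members that were called, none changed sign in the alternatives run, 15 kept their call in all of them, and 25 lost it in at least 1. Over the alternatives the edgeR or DESeq2 adjusted p on CD ran from 0.000684 to 0.210 for Mmp28, from 0.00508 to 0.0593 for Mmp10, from 0.000300 to 0.0831 for Mmp11, from 0.00441 to 0.0691 for Adamts18 and from 0.000170 to 0.0766 for Mmp15, and on HFD from 0.000898 to 0.0818 for Timp1, from 6.03e-05 to 0.0863 for Timp2, from 0.000139 to 0.0848 for Mmp2, from 2.37e-06 to 0.0545 for Mmp14, from 4.29e-05 to 0.0806 for Mmp9, from 0.00565 to 0.120 for Mmp15, from 0.000134 to 0.0970 for Mmp27, from 0.000568 to 0.0802 for Mmp28 and from 0.0116 to 0.172 for Adamts6. For HFD in WT it ran from 0.00502 to 0.437 for Adamts3, from 0.000604 to 0.159 for Mmp13, from 7.01e-05 to 0.119 for Mmp12, from 3.45e-06 to 0.104 for Mmp2, from 1.11e-06 to 0.0979 for Mmp14, from 6.78e-06 to 0.0961 for Mmp11, from 1.12e-16 to 0.0805 for Timp1 and from 2.38e-09 to 0.0805 for Timp2, and for the interaction from 0.000534 to 0.145 for Mmp12, from 2.34e-08 to 0.0788 for Timp1 and from 8.98e-05 to 0.121 for Timp2. Depth limits the low members: Mmp10, Adamts18, Mmp8 and Adamts3 lay near or within a few times the floor of 3 counts in several libraries.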

Other observations

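Single libraries carried some low members. In WT CD replicate 3 Adamts17 had 5.67 CPM, against 0.363 and 1.01 in the other WT CD libraries. In HoipA-KO HFD replicate 1 Mmp17 had 9.35 CPM, against 4.30 and 4.62 in replicates 2 and 3. Adamts8 had 6.65 CPM in the same library, against 1.94 and 1.01. That library also held the highest Mmp9, Mmp13 and Mmp10 of its group, beside epididymal epithelium markers that summed to 1678 CPM, against 0.165 and 115. These genes were chosen after their values were seen, and the part of other tissue in them was not tested.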
